A study of Mus musculus with 14 samples.

Results

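The genes of the spliceosome core, the SR proteins and the hnRNPs were followed in the left ventricle of male mice with a gene trap in Uty. Members were taken by name alone from the table of counts per gene, as protein-coding genes whose symbol starts with Srsf, Hnrnp, Sf3a, Sf3b, Snrp, Prpf, U2af, Luc7l, Mfap1 or Lsm followed by a digit. This rule gave 87 of 47642 genes in the table, 21767 of which were annotated as protein-coding. A gene was tested when it passed a filter on low counts, which 82 members did. The other 5 entries were Hnrnpa1, with 113 counts summed over all libraries, Lsm5 with 60, Srsf12 with 0, and a pair of entries that both carry the symbol U2af1l4 with 29 and 4.

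The libraries came from frozen left ventricles of 14 male mice, 7 UtyGT and 7 WT, at 40 days of age. UtyGT males carried the allele UtyGt(XS0378)Wtsi, a gene trap inside an intron of Uty on chromosome Y, made in the ES cell line E14Tg2a.4 from 129P2/OlaHsd mice, and the altered chromosome Y was then kept by crossing males to C57BL/6J females over many generations. WT males came from 129P2/OlaHsd males crossed to C57BL/6J females in the same manner, so that both groups hold a 129P2 chromosome Y on a C57BL/6J background. The trap is 1 allele from 1 ES cell line. Because the genotypes came from separate lines of crosses, an effect of the trap and another difference between the lines cannot be told apart. The paper reports that this trap also lowered transcripts of the neighboring gene Ddx3y and raised those of Eif2s3y in left ventricles. An effect of Uty alone can therefore not be told apart from effects of these genes. RNA was sequenced with QuantSeq 3′ FWD, which reads a short stretch near the 3′ end of each polyadenylated transcript. The comparison asks which transcripts of splicing genes differ in abundance between males with the trap and WT males.

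Splicing removes introns from precursor RNA. Small nuclear ribonucleoproteins (snRNPs) assemble on each intron in steps: U1 marks the 5′ splice site, U2AF, SF3A and SF3B bring U2 to the branch point and 3′ splice site, and the U4/U6.U5 tri-snRNP then joins to form the machine that cuts and ligates. Sm and Lsm proteins form the rings that hold the small nuclear RNAs, Prpf proteins act mostly in the tri-snRNP and in later steps, and SR proteins and hnRNPs bind exons and introns and steer which sites are used, with known effects on the splicing of sarcomere and calcium-handling transcripts in the heart.

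Each library held 6322161 to 10268706 counts assigned to genes. The trapped gene behaved as its labels say, with 1 to 6 counts of Uty in UtyGT and 47 to 75 in WT libraries. Libraries are called by their column numbers, such as UtyGT 6 and WT 4, and levels are given in CPM, which set each count against the summed counts of tested genes in its library after scaling by TMM. UtyGT 6 had the lowest level among UtyGT libraries for 30 of the 82 tested members and the highest for 26, and WT 4 had the lowest among WT libraries for 24 and the highest for 13. Levels are therefore given below as the lowest, median and highest library of each genotype. Cardiomyocyte markers summed to 41074 to 70618 CPM in UtyGT and 37346 to 59347 CPM in WT, with Ryr2 called higher. Endothelial markers summed to 464 to 661 CPM in UtyGT and 605 to 904 CPM in WT, with 2 of 6 called lower, and red cell markers to 1071 to 5117 CPM in UtyGT and 3192 to 6874 CPM in WT, with 2 of 5 called lower. None of the markers tested for fibroblasts, macrophages, pericytes and smooth muscle, atrial cells, adipocytes or Schwann cells was called, lymphocyte markers summed to at most 1.5 CPM in any library, and no marker was at 0 in all libraries. The part of these shifts in the results was not tested, and in tissue RNA fewer cells of a type and less RNA per cell cannot be told apart.

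Called members came from 6 of the 10 prefixes, and most were higher in UtyGT. Of 82 tested members, 7 were called higher in UtyGT (8.54%) and 1 lower (1.22%) at an adjusted p below 0.05, against 4.7% of all 11563 tested genes called higher and 3.34% called lower. Those higher included Mfap1a, Luc7l3, Snrpa1, Prpf6, Srsf2 and Prpf38b, and the lower was Lsm4. At an unadjusted p below 0.05, 17 members were higher (20.7%) and 8 lower (9.76%), against 12.5% and 12.3% of all tested genes. DESeq2 called 11 of 86 members higher (12.8%) and 6 lower (6.98%), against 3.25% and 3.04% of all genes in its fit. That fit held all 22002 genes with any count, of which only 11563 passed the filter on low counts. Its shares over all genes, here and below, thus include many genes with few counts and are not on the same footing as those of the members. Log2 fold changes of UtyGT over WT were above 0 for 50 members and below 0 for 32, with a median of 0.08, beside 0.01 over all tested genes. In 5 members every UtyGT library lay above every WT library (6.10%, against 1.46% of all tested genes), and in 1 every UtyGT library lay below (1.22%, against 0.675%). All 87 members together, including the 5 not tested, made up 4890 ± 225 CPM in UtyGT and 4545 ± 268 CPM in WT (SD, n = 7 each). The range of these sums was 4689 to 5277 CPM in UtyGT, against 4200 to 4880 CPM in WT.

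**Figure D1:**
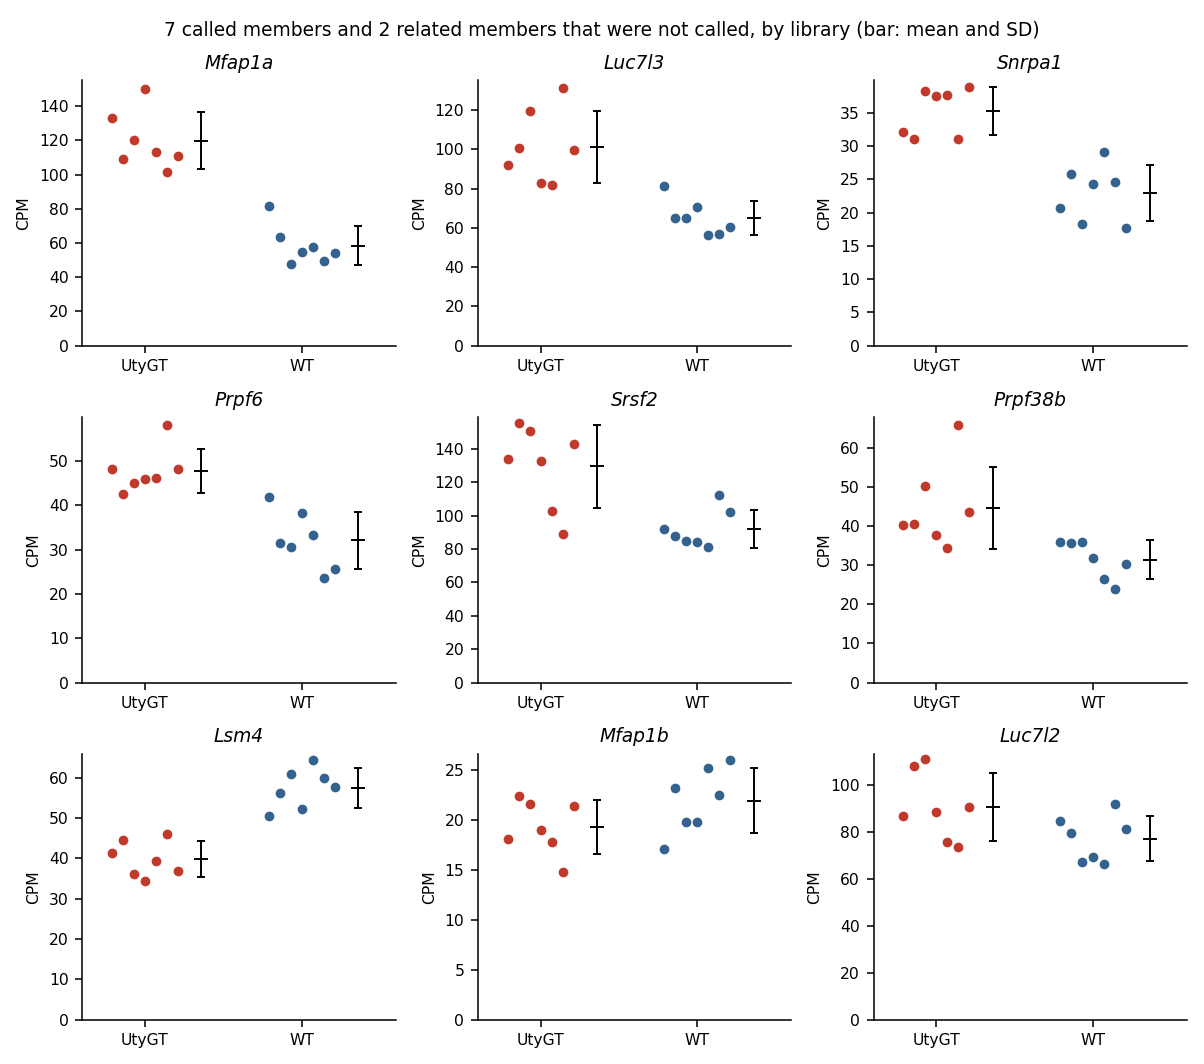
Levels in CPM of 7 called members, with Mfap1b and Luc7l2 as close relatives of called members, in the 7 UtyGT libraries (left in each panel) and the 7 WT libraries (right), where each point is a library and the bar is the mean with its SD. All UtyGT points lie above all WT points for Mfap1a, Luc7l3, Snrpa1 and Prpf6 and below them for Lsm4, while the points overlap for Srsf2, Prpf38b, Mfap1b and Luc7l2.

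Mfap1a had the smallest adjusted p of all members. Its product, named a microfibril-associated protein, is in human cells a component of the spliceosome at the stage when the tri-snRNP has joined. Mfap1a (ENSMUSG00000068479, chr2:121491911-121506665, minus strand, GRCm38) had a lowest, median and highest level of 101, 113 and 150 CPM in UtyGT, against 47.8, 54.7 and 81.5 CPM in WT. The lowest UtyGT library was thus above the highest WT library, WT 1, and the means of 119.8 ± 16.7 CPM in UtyGT and 58.4 ± 11.4 CPM in WT gave a log2 fold change of 1.04 ± 0.13 (SE, adjusted p = 0.000492). Mfap1b (ENSMUSG00000048222, chr2:121460235-121474067, minus strand), which lies 17843 bp away and is a copy of the same gene, had 14.7, 19.0 and 22.4 CPM in UtyGT, against 17.1, 22.4 and 26.0 CPM in WT. The genotypes overlapped, and Mfap1b had a log2 fold change of -0.19 ± 0.13 (adjusted p = 0.387).

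The ratio of both copies within a library does not depend on scaling, and it separated the genotypes. The count of Mfap1a over that of Mfap1b was 7.34, 4.87, 5.58, 7.86, 6.37, 6.85 and 5.17 in UtyGT 1 to 7, against 4.74, 2.72, 2.42, 2.76, 2.28, 2.21 and 2.08 in WT 1 to 7. The difference of the mean log2 ratios was 1.23 (exact two-sided permutation test over 3432 assignments, p = 0.000583, the smallest these groups allow, adjusted over 8 pairs p = 0.00466). The 8 pairs were chosen with earlier results of these data known, and the adjustment does not cover that choice. WT 1 had by far the highest ratio among WT libraries and still lay below the lowest UtyGT library.

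The coding parts of Mfap1a and Mfap1b in GENCODE M21 were identical at 1320 of 1320 nt, so that only reads outside the coding part can tell the copies apart. After the stop codon the longest transcripts ran for 2754 nt in Mfap1a and 1887 nt in Mfap1b. Of the 50-nt words of this stretch of Mfap1a, 27.1% were also found in the transcript of Mfap1b. In the other direction, 39.9% of those of Mfap1b were found in the transcript of Mfap1a. Near the 3′ end, where QuantSeq reads start, 2.44% of the words in the last 500 nt of Mfap1b were shared with Mfap1a. In the last 500 nt of Mfap1a, 69.4% were shared with Wdr76, the next gene along the chromosome, which had a mean of 1.57 ± 0.22 CPM in UtyGT and 1.37 ± 0.39 CPM in WT. How the counting placed reads that match more than 1 gene is not given in the sources used here, so the split between the copies carries this uncertainty.

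The start regions of the copies are printed to show how alike they are, beside that of Srsf2, the SR gene called higher. Each sequence is the 250 bases before the annotated start, in the direction of transcription, from RefSeq on GRCm38.p6: chr2:121506657-121506906 for Mfap1a, chr2:121474024-121474273 for Mfap1b and chr11:116853095-116853344 for Srsf2, all on the minus strand. Capitals mark CCGGAAG, a core sequence of ETS-family binding sites, or its reverse complement in both Mfap1 copies, and TATAAA in Srsf2.
Mfap1a: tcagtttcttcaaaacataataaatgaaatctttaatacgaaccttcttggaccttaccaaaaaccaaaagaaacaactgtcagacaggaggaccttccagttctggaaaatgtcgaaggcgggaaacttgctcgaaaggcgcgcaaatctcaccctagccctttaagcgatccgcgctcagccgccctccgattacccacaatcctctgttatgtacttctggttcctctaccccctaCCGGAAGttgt
Mfap1b: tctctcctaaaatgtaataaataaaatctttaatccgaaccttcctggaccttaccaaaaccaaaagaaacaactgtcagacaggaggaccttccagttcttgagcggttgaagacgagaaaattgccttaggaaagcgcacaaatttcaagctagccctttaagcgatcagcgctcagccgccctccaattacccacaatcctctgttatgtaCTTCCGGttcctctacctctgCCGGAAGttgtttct
Srsf2: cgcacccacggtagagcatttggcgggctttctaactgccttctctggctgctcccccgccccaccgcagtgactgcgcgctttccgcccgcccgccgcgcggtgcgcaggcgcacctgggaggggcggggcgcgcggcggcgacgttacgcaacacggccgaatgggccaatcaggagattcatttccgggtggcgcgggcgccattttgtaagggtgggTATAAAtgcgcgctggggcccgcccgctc

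With the 50 bases after the start added, the windows of both Mfap1 copies were identical at 260 of 293 aligned bases (88.7%), with 33 mismatches and 7 unpaired bases in each. The ETS core began 11 bases before the start in Mfap1a and 36 and 15 bases before it in Mfap1b, whose match farther from the start is the reverse complement. Counting both strands of such 300-base windows, CCGGAAG was found in 29.2% of 96 windows of 73 members, against 17.4% of windows of tested genes and 8.86% of all 32851 windows in the table. Of the other motifs searched, the CRE core TGACGTCA was in 3.13% of member windows, 3.06% of windows of tested genes and 1.79% of all windows, and AAGATGG, part of YY1 sites that can overlap CCGGAAG by the letters AAG, in 5.21%, 7.07% and 6.34%. TATAAA, which begins 29 bases before the start in Srsf2, was in 7.29% of member windows, 7.43% of windows of tested genes and 13.6% of all windows. A match is a run of letters and not a measured site, and several windows can belong to 1 gene.

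U1 snRNP and its partners, which select the 5′ splice site, held both called and uncalled members. Luc7l3, a homolog of a yeast U1 protein that affects the choice of 5′ splice sites, had 81.8, 99.6 and 131 CPM in UtyGT (lowest, median and highest), against 56.2, 64.9 and 81.2 CPM in WT (ENSMUSG00000020863, chr11:94287890-94321988, minus strand). Every UtyGT library was above every WT library, by a narrow margin at the lowest UtyGT library (log2 fold change 0.64 ± 0.13, adjusted p = 0.00833). After a correction for GC content in each library Luc7l3 was not called (0.46, adjusted p = 0.0771). Its relatives were not called: Luc7l2 had 73.6, 88.5 and 111 CPM in UtyGT, against 66.6, 79.8 and 92.0 CPM in WT (log2 fold change 0.23, adjusted p = 0.243), and Luc7l had medians of 19.0 CPM in both genotypes (0.03, adjusted p = 0.908). The ratio of Luc7l3 to Luc7l2 within a library, at 1.11 in UtyGT and 0.841 in WT as a geometric mean, differed between genotypes (difference of log2 ratios 0.40, exact two-sided permutation p = 0.00758, adjusted over 8 pairs p = 0.0303). UtyGT 6 had the highest ratio of all libraries, and the difference was 0.29 without it. The ratio no longer passed the test without UtyGT 7, WT 2, WT 6 or WT 7 (adjusted exact permutation p from 0.0513 to 0.0606). Of the words near the 3′ end of Luc7l2, 21.7% were shared with 163 other genes.

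Prpf40b, a relative of a U1-associated protein of yeast, had 7.32, 10.9 and 15.4 CPM in UtyGT, against 11.9, 14.3 and 17.0 CPM in WT, with 5 UtyGT libraries below the WT range, and was not called (-0.39 ± 0.17, adjusted p = 0.173). Snrpa, which encodes a protein found in U1 alone, had 4.58, 6.52 and 11.7 CPM in UtyGT, against 5.51, 11.0 and 16.6 CPM in WT (-0.69 ± 0.26, adjusted p = 0.105, named after its values were seen), and 35.3% of the words near its 3′ end were shared with other genes.

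At the 3′ end of the intron the U2 proteins did not move as a block. Snrpa1, which encodes a protein specific to U2 snRNP, was the Snrp member called higher, with 31.1, 37.6 and 38.8 CPM in UtyGT, against 17.7, 24.3 and 29.1 CPM in WT (ENSMUSG00000030512, chr7:66059003-66074587, plus strand). The genotypes did not overlap, and the log2 fold change was 0.62 ± 0.13 (adjusted p = 0.00958). Snrpb2, whose product binds U2 RNA together with that of Snrpa1, had a log2 fold change of 0.27 (adjusted p = 0.149, named after its values were seen). Snrpa1 overlaps Gm45213 on the same strand, from which its reads cannot be told apart where they overlap.

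U2AF and SF3A, which recognise the polypyrimidine tract and tether U2, had fold changes below 0 for 4 of 5 tested members and no called member. At an unadjusted p below 0.05 3 of the 5 were lower and 0 higher, beside 12.3% of all tested genes lower. DESeq2 called Sf3a1, Sf3a2 and U2af2 lower, beside 3.04% of all genes in its fit. U2af2, the large U2AF subunit that binds the polypyrimidine tract, had 25.2, 30.7 and 70.0 CPM in UtyGT, against 34.9, 58.1 and 108 CPM in WT. The highest UtyGT library was UtyGT 6 and the lowest and highest WT libraries were WT 7 and WT 4, so that the genotypes overlapped even though 5 UtyGT libraries lay below the whole WT range (log2 fold change -0.78 ± 0.26, adjusted p = 0.0748). The adjusted p of U2af2 was 0.00543 without UtyGT 6 and 0.0377 without WT 7, and 0.100 after GC correction (log2 fold change -0.61). U2af1, the small subunit that reads the AG of the 3′ splice site, had 7.21, 11.0 and 15.6 CPM in UtyGT, against 10.3, 13.2 and 17.1 CPM in WT (-0.32 ± 0.18, adjusted p = 0.284), with 71.2% of the words near its 3′ end shared with annotated copies. The ratio of U2af1 to U2af2 was 0.301 in UtyGT and 0.223 in WT, a difference that did not pass the exact permutation test (p = 0.0810, adjusted p = 0.130).

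Sf3a2, a subunit of the SF3A complex of U2, had the lowest log2 fold change of all members. Its levels were 4.00, 4.64 and 9.58 CPM in UtyGT, against 5.51, 10.1 and 18.2 CPM in WT, with UtyGT 6 and WT 4 at the top of their groups (-0.86 ± 0.26, adjusted p = 0.0519, and 0.00841 without UtyGT 6). After GC correction the log2 fold change of Sf3a2 was -0.54 (adjusted p = 0.151). Sf3a1, the largest SF3A subunit, had 26.4, 36.4 and 45.5 CPM in UtyGT, against 42.3, 46.0 and 52.4 CPM in WT. Only 1 UtyGT library reached the WT range, and Sf3a1 was not called (-0.35 ± 0.12, adjusted p = 0.0759, and -0.37 with an adjusted p of 0.0728 after GC correction). Sf3a3 had a log2 fold change of 0.27 (adjusted p = 0.415). The summed level of SF3A was 54.9 ± 6.91 CPM in UtyGT and 67.6 ± 2.96 CPM in WT (SD, n = 7 each), with 44.6 to 64.7 CPM in UtyGT against 64.3 to 71.8 CPM in WT.

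The SF3B complex, which clamps the branch point, had no member called by edgeR or DESeq2 among 6 tested, with a median log2 fold change of 0.04. At an unadjusted p below 0.05, 1 was higher (16.7%, beside 12.5% of all tested genes) and 0 lower. Sf3b1, its largest subunit, had 79.3, 110 and 119 CPM in UtyGT, against 74.6, 85.4 and 103 CPM in WT (0.26, adjusted p = 0.157). Sf3b2 had 162, 208 and 353 CPM in UtyGT, against 186, 316 and 357 CPM in WT, with UtyGT 6 far above the other UtyGT libraries (-0.33, adjusted p = 0.263). The ratio of Sf3b1 to Sf3b2 was 0.488 in UtyGT and 0.322 in WT (difference of log2 ratios 0.60, exact two-sided permutation p = 0.0629, adjusted p = 0.126), and its adjusted p was 0.0396 without UtyGT 6. This ratio is not corrected for GC content, which was 42.1% in Sf3b1 and 54.3% in Sf3b2. After GC correction the log2 fold changes were 0.09 for Sf3b1 (adjusted p = 0.616) and -0.23 for Sf3b2 (adjusted p = 0.399). Sf3b6, which contacts the branch point, had a log2 fold change of 0.38 (adjusted p = 0.227).

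**Figure D2:**
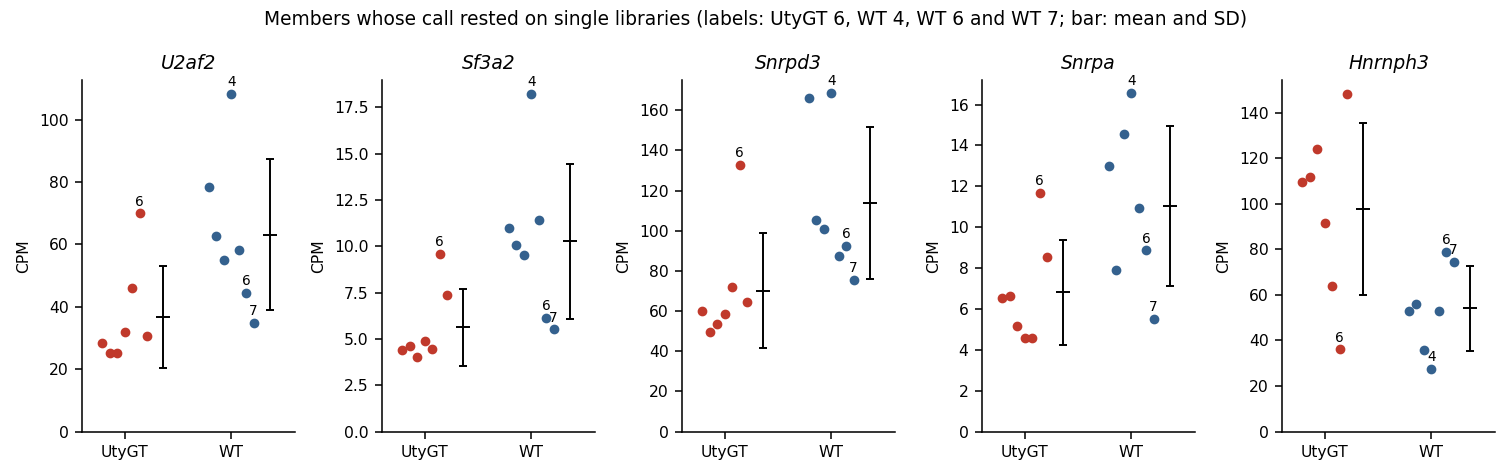
Levels in CPM of U2af2, Sf3a2, Snrpd3, Snrpa and Hnrnph3 in the 7 UtyGT libraries (left in each panel) and 7 WT libraries (right), where each point is a library and UtyGT 6, WT 4, WT 6 and WT 7 are labelled. UtyGT 6 is the highest UtyGT library for U2af2, Sf3a2, Snrpd3 and Snrpa and the lowest for Hnrnph3. By edgeR none of these members was called with all libraries, while all were called without UtyGT 6. With all libraries DESeq2 called U2af2, Sf3a2 and Snrpd3 lower and Hnrnph3 higher, and after GC correction none of these members was called.

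The Sm proteins, which form the ring on U1, U2, U4 and U5 RNA, included no called member. DESeq2 called Snrpb and Snrpd3 lower, beside 3.04% of all genes in its fit. Snrpd3 had 49.8, 60.3 and 133 CPM in UtyGT, against 75.7, 101 and 169 CPM in WT, and 6 of 7 UtyGT libraries lay below all WT libraries while UtyGT 6 had the highest UtyGT level. Its log2 fold change was -0.69 ± 0.23 with an adjusted p of 0.0713, and 0.00271 without UtyGT 6. After GC correction it was -0.77 (adjusted p = 0.0865). Snrpb, which encodes SmB, had 67.9, 74.5 and 78.3 CPM in UtyGT, against 73.6, 91.3 and 102 CPM in WT (-0.28 ± 0.10, adjusted p = 0.0748). After GC correction the log2 fold change of Snrpb was -0.07 (adjusted p = 0.760). Snrpn, its imprinted relative expressed in brain and heart, was not called either (-0.21, adjusted p = 0.485), and the ratio of Snrpn to Snrpb was 0.278 in UtyGT and 0.266 in WT (exact permutation p = 0.716). The 6 other tested Snrp members had log2 fold changes of -0.18 to 0.22, and 100% of the words near the 3′ end of Snrpf were shared with other genes.

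Lsm4 was the member called lower, a call that was lost after correction for GC content (log2 fold change -0.28, adjusted p = 0.149). It belongs to the Lsm2-8 ring on U6 RNA and also to the cytoplasmic Lsm1-7 ring that promotes removal of the mRNA cap. Its levels were 34.5, 39.4 and 46.1 CPM in UtyGT, against 50.4, 57.8 and 64.4 CPM in WT (ENSMUSG00000031848, chr8:70673248-70678752, plus strand). The genotypes did not overlap, with means of 39.8 ± 4.39 CPM in UtyGT and 57.4 ± 4.88 CPM in WT and a log2 fold change of -0.53 ± 0.10 (adjusted p = 0.00702). The other 11 tested Lsm members were not called, among them Lsm6, the Lsm member with the highest counts (165 ± 49.9 CPM in UtyGT and 157 ± 37.4 CPM in WT, log2 fold change 0.07, adjusted p = 0.845), and Lsm8, found only in the U6 ring (0.64, adjusted p = 0.345).

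Prpf genes, which act mostly in the tri-snRNP and in activation of the spliceosome, had a median log2 fold change of 0.35 over 13 tested members, among which Prpf6 and Prpf38b were called higher. Prpf6, which bridges U5 and U4/U6 in the tri-snRNP, had 42.5, 46.1 and 58.1 CPM in UtyGT, against 23.5, 31.6 and 41.7 CPM in WT (ENSMUSG00000002455, chr2:181591868-181655660, plus strand). The genotypes did not overlap, although the lowest UtyGT and the highest WT library were close (0.57 ± 0.13, adjusted p = 0.0153). Prpf6 overlaps Samd10 and Zfp512b on the opposite strand, and the strand setting of the counting is not given in the sources used here.

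Prpf38b, related to yeast Prp38 of the tri-snRNP, had 34.3, 40.5 and 65.7 CPM in UtyGT, against 23.9, 31.9 and 36.0 CPM in WT (ENSMUSG00000027881, chr3:108902805-108911727, minus strand). Here 6 of 7 UtyGT libraries lay above all WT libraries, with UtyGT 6 the highest, and the adjusted p of 0.0447 was near the threshold (0.51 ± 0.15). The call was lost under 15 alternatives, among them the GC correction (0.41, adjusted p = 0.147). Its relative Prpf38a had a log2 fold change of -0.26 (adjusted p = 0.506). Prpf19, the ubiquitin ligase that gives its name to the complex of spliceosome activation, had the most counts of the Prpf genes, with 145, 264 and 315 CPM in UtyGT, against 96.3, 202 and 242 CPM in WT, and was not called (0.35, adjusted p = 0.259). The kinase gene Prpf4b, whose product phosphorylates tri-snRNP proteins, had 44.2, 50.5 and 79.8 CPM in UtyGT, against 28.4, 33.0 and 51.8 CPM in WT (0.51 ± 0.17, adjusted p = 0.0678), and the catalytic scaffold gene Prpf8 had a log2 fold change of -0.03 (adjusted p = 0.934). After GC correction the log2 fold change of Prpf4b was 0.34 (adjusted p = 0.322). Prpf38a, Prpf4b and Prpf8 were named after their values were seen.

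**Figure D3:**
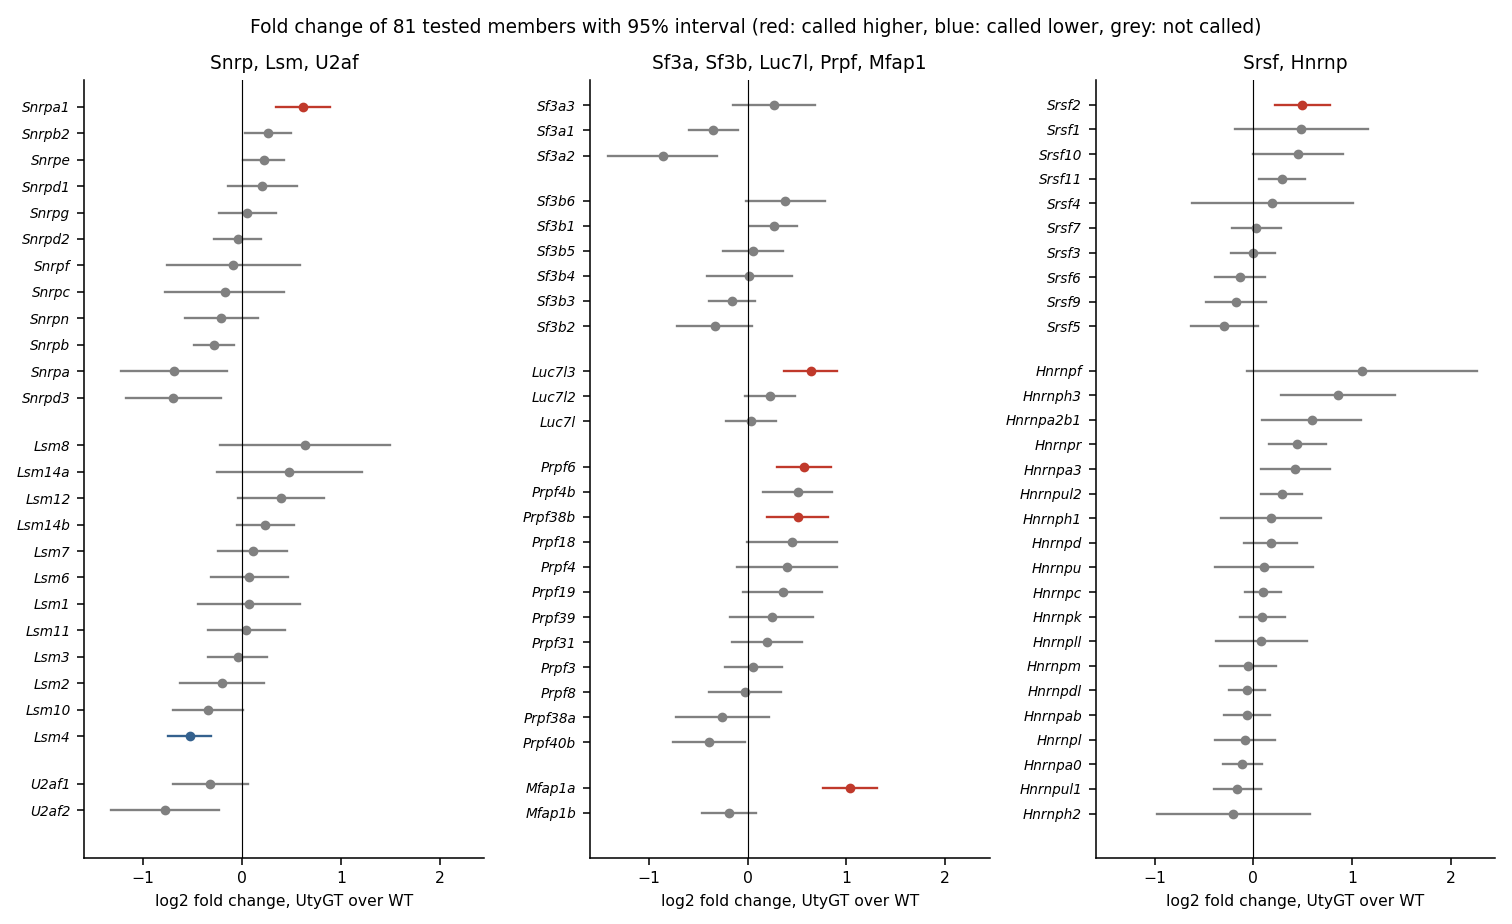
Log2 fold change of UtyGT over WT for 81 of the 82 tested members, grouped by name prefix in 3 panels, with bars for the 95% confidence interval and called members marked. Called members are spread over the Mfap1, Luc7l, Snrp, Prpf, Srsf and Lsm prefixes, while no Hnrnp, Sf3a, Sf3b or U2af member was called.

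Among 10 tested SR protein genes, Srsf2 was the member called higher. Srsf2 (SC35) binds exonic enhancers and is a widely used marker of nuclear speckles. It had 89.0, 134 and 155 CPM in UtyGT, against 81.0, 87.8 and 112 CPM in WT (ENSMUSG00000034120, chr11:116849901-116853094, minus strand). With 5 UtyGT libraries above all WT libraries and UtyGT 5 and UtyGT 6 within the WT range, the groups overlapped (0.49 ± 0.13, adjusted p = 0.0305), and the call was lost without any 1 of 10 libraries. Of the words near its 3′ end, 91.1% were shared with Mettl23 on the opposite strand, whose reads cannot be told from those of Srsf2 without a stated strand setting.

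The other SR genes were not called. Srsf3, with the highest SR counts, had 138 ± 13.7 CPM in UtyGT and 138 ± 16.9 CPM in WT (log2 fold change -0.00 ± 0.10, 95% confidence interval -0.22 to 0.22, adjusted p = 0.987). Srsf7, a shuttling relative of Srsf3, had a log2 fold change of 0.03 (adjusted p = 0.904), and the ratio of Srsf7 to Srsf3 was 0.347 in UtyGT and 0.337 in WT (exact permutation p = 0.491, adjusted p = 0.617). The lowest fold change in the group was that of Srsf5 (-0.29, adjusted p = 0.276), and for Srsf4 100% of the words near the 3′ end were shared with Gm12992.

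The hnRNPs, which package nascent RNA and often block splice sites, held 19 tested members and no called one, with a median log2 fold change of 0.10. At an unadjusted p below 0.05, 5 were higher (26.3%, beside 12.5% of all tested genes) and 0 lower (beside 12.3%). DESeq2 called Hnrnph3, Hnrnpr and Hnrnpul2 higher, beside 3.25% of all genes in its fit. Hnrnpk, the hnRNP gene with the highest counts, had 309 ± 44.4 CPM in UtyGT and 290.0 ± 25.1 CPM in WT (0.09, adjusted p = 0.642). Hnrnph3 had 36.1, 109 and 148 CPM in UtyGT, against 27.3, 53.0 and 78.9 CPM in WT, with UtyGT 6 as the lowest UtyGT library and 5 UtyGT libraries above all WT libraries (0.85 ± 0.27, adjusted p = 0.0637, and 0.00917 without UtyGT 6). Hnrnpr had 26.9, 33.0 and 47.2 CPM in UtyGT, against 19.5, 24.2 and 30.0 CPM in WT (0.45 ± 0.14, adjusted p = 0.0525). After GC correction the log2 fold changes were 0.69 for Hnrnph3, 0.29 for Hnrnpr and 0.25 for Hnrnpul2 (adjusted p = 0.0960, 0.308 and 0.129). Hnrnph3, Hnrnpr and Hnrnpul2 were named after their values were seen.

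Hnrnpa2b1, which binds RNA in the nucleus and in transport granules, had 90.5, 131 and 228 CPM in UtyGT, against 63.7, 83.2 and 155 CPM in WT (0.59 ± 0.24, adjusted p = 0.135). Its relative Hnrnpa1 did not pass the filter on low counts, and the ratio of Hnrnpa2b1 to Hnrnpa1, at 112 in UtyGT and 132 in WT, rests on few counts of Hnrnpa1 (exact permutation p = 0.540, adjusted p = 0.617). The ratio of Hnrnpdl to Hnrnpd, which encode AU-rich element binding proteins, was 4.01 in UtyGT and 4.77 in WT, and the difference did not pass after adjustment (exact permutation p = 0.0385, adjusted p = 0.103). Neither was called alone, with log2 fold changes of -0.06 for Hnrnpdl and 0.18 for Hnrnpd. The highest log2 fold change in the group, 1.10 for Hnrnpf, came with 0.421, 4.52 and 10.5 CPM in UtyGT, against 0.408, 1.84 and 6.78 CPM in WT (adjusted p = 0.227), and the lowest was that of Hnrnph2 (-0.20, adjusted p = 0.775).

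**Figure D4:**
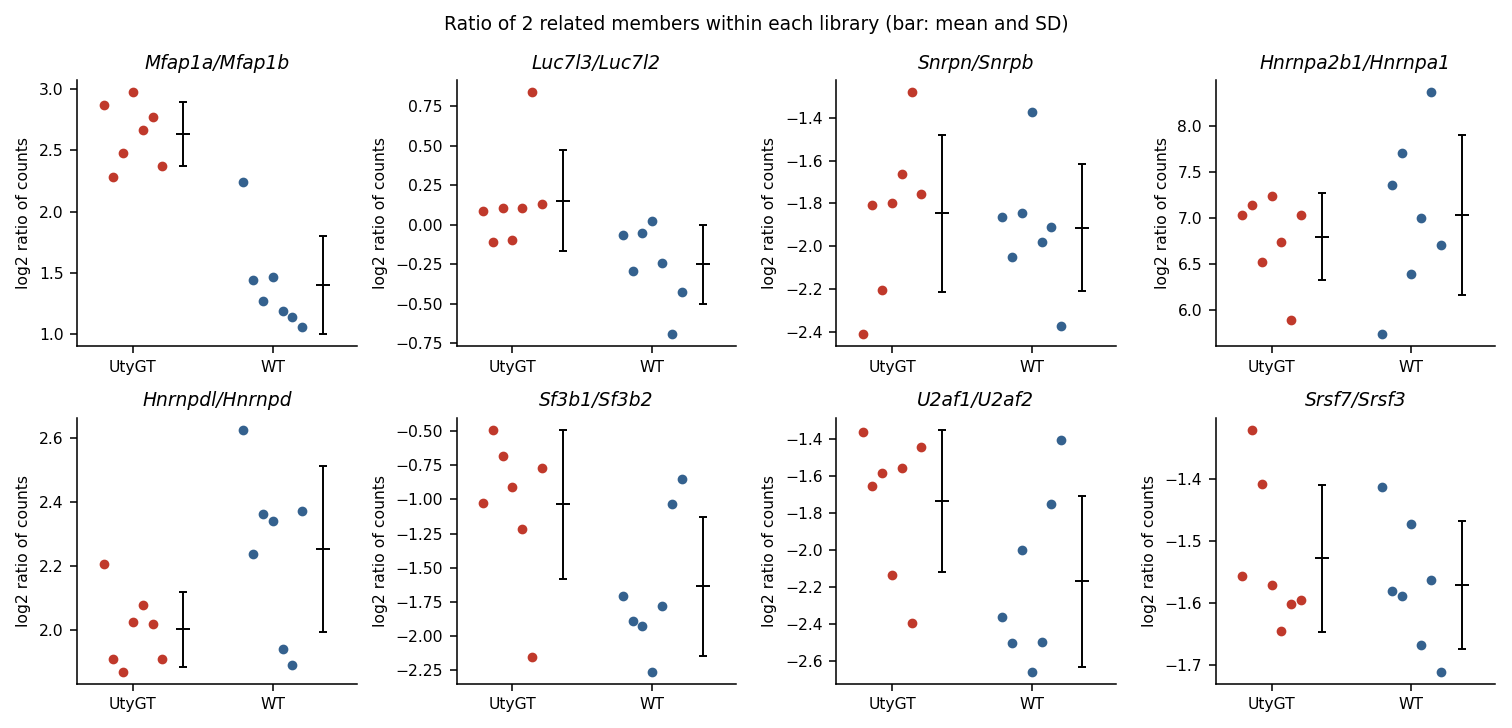
Log2 ratio of the counts of 2 related members within each library for 8 pairs, with the 7 UtyGT libraries left and the 7 WT libraries right in each panel. For Mfap1a to Mfap1b the UtyGT libraries lie between 2.28 and 2.97 and the WT libraries between 1.06 and 2.25, and for Luc7l3 to Luc7l2 the groups overlap, between -0.11 and 0.84 in UtyGT and between -0.69 and 0.02 in WT.

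Other splicing genes were read beside the members in 4 lists, which were chosen with earlier results of these data known. Of 59 other spliceosome proteins, 6 were called higher and 0 lower (10.2% and 0%, beside 4.7% and 3.34% of all tested genes, median log2 fold change 0.19). At an unadjusted p below 0.05, 13 were higher (22.0%, beside 12.5%) and 1 lower (1.69%, beside 12.3%), and DESeq2 called 9 higher and 0 lower, beside 3.25% and 3.04% of all genes. Wbp4, a component of the spliceosome before activation, had 35.9 ± 5.85 CPM in UtyGT and 22.8 ± 3.51 CPM in WT (0.65 ± 0.13, adjusted p = 0.00923), and Smndc1, needed in human extracts for the tri-snRNP to join, had 48.4 ± 8.94 CPM in UtyGT and 33.9 ± 2.05 CPM in WT (0.51 ± 0.12, adjusted p = 0.0150). The lariat-associated factor Cwf19l2 (0.95 ± 0.15), the U2 partner Htatsf1 and the minor spliceosome gene Snrnp48 were also called higher. After GC correction 4 were called higher, among them Cwf19l2, Htatsf1 and Wbp4, beside 2.63% of all tested genes. Without UtyGT 6 the list had 9 higher and 3 lower, beside 7.87% and 11.4% of all tested genes.

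SR-related proteins and SR kinases had the highest share of called genes among these lists. Of 26 genes, 10 were higher and 0 lower (38.5% beside the 4.7% of all tested genes, median log2 fold change 0.26). In 7 genes every UtyGT library lay above every WT library (26.9%, beside 1.46% of all tested genes). At an unadjusted p below 0.05, 12 were higher (46.2%, beside 12.5%) and 3 lower (11.5%, beside 12.3%). DESeq2 called 10 higher and the kinase gene Srpk3 lower, beside 3.25% and 3.04% of all genes. Ppig, a cyclophilin with an RS domain, had 88.9, 100 and 127 CPM in UtyGT, against 53.9, 64.6 and 71.7 CPM in WT (0.71 ± 0.11, adjusted p = 0.00193). Scaf11, which has an RS domain and binds spliceosome proteins, had 52.3, 67.8 and 79.0 CPM in UtyGT, against 34.8, 40.4 and 51.4 CPM in WT (0.69 ± 0.12, adjusted p = 0.00396). Arglu1, a nuclear arginine- and glutamate-rich protein, had 114 ± 6.49 CPM in UtyGT and 84.0 ± 6.16 CPM in WT, with no overlap (0.44 ± 0.09, adjusted p = 0.00904). Pnn, Bclaf1, Scaf4, Rsrc2, Srek1, Tra2b and Son were also called higher, and none of the 7 kinase genes Clk1 to Clk4 and Srpk1 to Srpk3 was. After GC correction Pnn, Ppig, Scaf11 and Scaf4 were called, 4 higher and 0 lower, beside 2.63% and 2.14% of all tested genes. Without UtyGT 6 the list had 11 higher and 3 lower, beside 7.87% and 11.4% of all tested genes.

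Among 33 tested splicing regulators outside the member prefixes, 4 were called higher (12.1%, beside 4.7% of all tested genes) and 2 lower (6.06%, beside 3.34%), with a median log2 fold change of 0.04. Elavl1, which encodes the RNA-stabilising protein HuR, had 29.0, 35.1 and 49.1 CPM in UtyGT, against 46.3, 66.3 and 79.8 CPM in WT (-0.80 ± 0.15, adjusted p = 0.00548), and the cold-inducible Cirbp was the other gene called lower. Fubp1, which binds single-stranded DNA and introns, had 90.8 ± 8.83 CPM in UtyGT and 66.1 ± 7.95 CPM in WT (0.46 ± 0.10, adjusted p = 0.0155). The nuclear matrix protein gene Matr3 (0.50 ± 0.13, adjusted p = 0.0249) and Syncrip, which encodes hnRNP Q (0.50 ± 0.13, adjusted p = 0.0258), were called higher, as was Tardbp. After GC correction 0 were called higher and 2 lower, Elavl1 and Cirbp, beside 2.63% and 2.14% of all tested genes. Without UtyGT 1, UtyGT 3, UtyGT 7 or WT 4 the list had 1 higher, Fubp1, and 1 lower, Elavl1 (beside 2.36% to 2.75% and 1.25% to 1.51% of all tested genes). Without UtyGT 2, WT 2, WT 3 or WT 5 it had 2 higher and 1 or 2 lower (beside 2.54% to 3.21% and 1.46% to 2.10%). Without UtyGT 6 it had 5 higher and 6 lower (beside 7.87% and 11.4%). Of 13 tested genes for snRNP assembly, the SMN and PRMT5 pathway, 0 were called in either direction by edgeR, with 2 higher (15.4%, beside 12.5% of all tested genes) and 4 lower (30.8%, beside 12.3%) at an unadjusted p below 0.05. DESeq2 called Snupn lower, beside 3.04% of all genes. Without UtyGT 6, Wdr77 was called higher and Gemin7, Prmt5 and Snupn lower (beside 7.87% and 11.4% of all tested genes). Without WT 7, Wdr77 was called higher and Snupn lower (beside 5.05% and 4.81%).

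The fold changes of members moved with their base composition. The members had a median GC content of 46.4%, measured over the longest transcript, against 50.1% for all tested genes. In 3 groups of members by GC content, of 28, 27 and 27 members cut at 44.3% and 49.8%, median log2 fold changes were 0.25, 0.07 and -0.11, beside 0.18, 0.10 and -0.12 for all tested genes in the same ranges. Members called higher numbered 3, 1 and 3 in these groups (10.7%, 3.70% and 11.1%), beside 10.6%, 6.15% and 1.6% of all tested genes in the same ranges, and Lsm4, at 59.4% GC, was in the group of highest GC content, where 5.32% of all tested genes were called lower. In each library the log2 CPM of a tested gene was set against its mean over all 14 libraries, and this difference was fitted on GC content. The slope per 10 percentage points was -0.30 to 0.15 in UtyGT, with a mean of -0.11. In WT it was -0.08 to 0.33, with a mean of 0.11. The centring forces both means to mirror each other, so they show a difference between the genotypes and not a separate trend in each.

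After a correction for GC content in each library, 4 members were called higher, namely Mfap1a, Prpf6, Snrpa1 and Srsf2, and 0 lower (4.88% and 0%, against 2.63% and 2.14% of all tested genes), and the median log2 fold change of members was -0.00. Luc7l3, Prpf38b and Lsm4 kept their direction and were no longer called. Mfap1a, Prpf6 and Snrpa1 were called in each of the 22 alternatives, whereas Srsf2 was lost with no count filter (adjusted p = 0.0545) and without any 1 of UtyGT 1, 2, 3, 4 and 7 and WT 1 to 5 (0.0515 to 0.0704), and Prpf38b under 15 alternatives (0.0504 to 0.147), namely no count filter, GC correction, WT 4 and UtyGT 6 left out together, and any single library left out other than UtyGT 5 and UtyGT 6. The part of this GC trend in the fold changes was not tested beyond this correction.

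**Figure D5:**
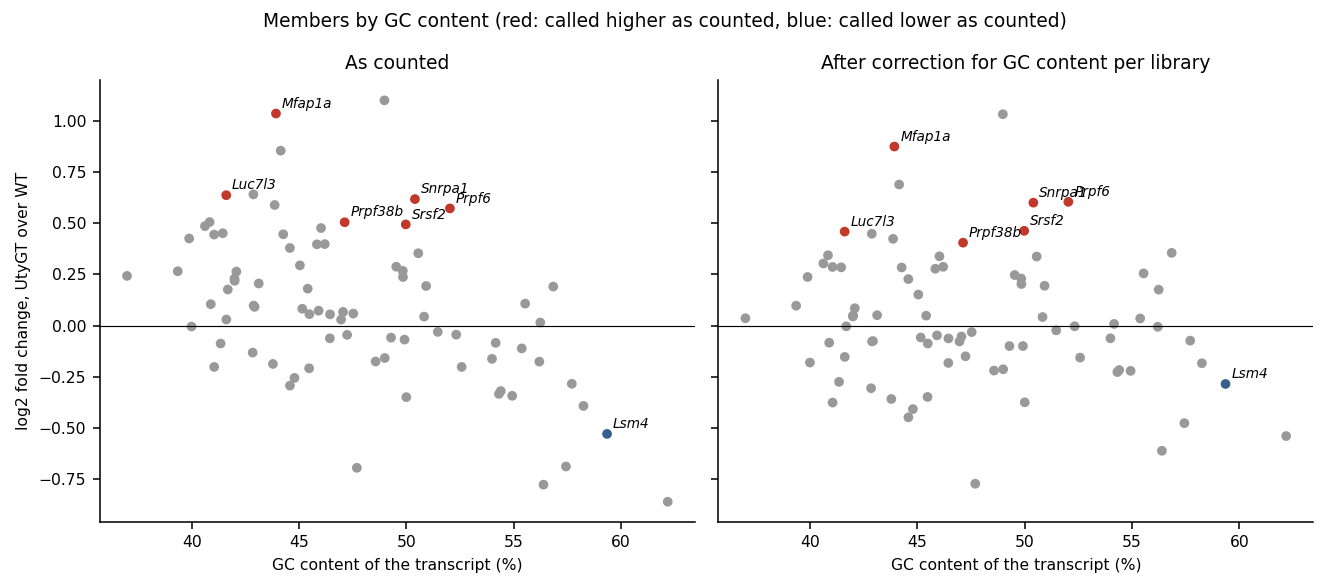
Log2 fold change of UtyGT over WT of 81 of the 82 tested members (vertical axis) against the GC content of their longest transcript in percent (horizontal axis), as counted and after correction for GC content in each library, with called members marked. As counted, the points fall with GC content, with medians of 0.25, 0.07 and -0.11 in groups of rising GC content, and after correction Mfap1a, Prpf6, Snrpa1 and Srsf2 are called.

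The calls also moved with single libraries. Without UtyGT 6, 11 members were called higher (13.4%) and 9 lower (11.0%), when 7.87% of all tested genes were called higher and 11.4% lower. The 9 lower were Lsm4, Lsm10, Prpf40b, Sf3a1, Sf3a2, Sf3b2, Snrpa, Snrpd3 and U2af2, and Hnrnph3, Hnrnpul2, Sf3b1 and Sf3b6 joined the members called higher. Leaving out WT 7 gave 7 higher (8.54%, against 5.05% of all tested genes) and 5 lower (6.10%, against 4.81%), the lower being Lsm4, Sf3a2, Snrpa, Snrpd3 and U2af2. Each of UtyGT 5, WT 1 and WT 6 left out gave 2 members lower (2.41%, 2.44% and 2.41%, against 3.18%, 3% and 3.75% of all tested genes), and leaving out WT 4 and UtyGT 6 together gave 8 higher (9.76%, against 6.88%) and 5 lower (6.10%, against 7.21%).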

How the data were processed

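QuantSeq 3′ FWD reads from 7 UtyGT and 7 WT left ventricles were aligned by the authors to GRCm38/mm10 on the Bluebee platform, per the study's methods, and deposited as whole-number counts per gene and library. The submitters' processing notes name CASAVA 1.4, FastQC, STAR, featureCounts 1.6.0 and DESeq2 1.22.2. Columns give the genotype of a library but not which mouse it is. Columns with the authors' own comparison (mean level, fold change, standard error, test statistic and p-values) did not enter any test, and neither did 5 entries that name no gene (45.9% to 49.1% of reads) and 4984 entries with an annotation but no counts. Each library came from a different mouse, and chi-square tests between libraries of the same genotype gave 6.28 to 128 per gene over 42 pairs, more than sampling noise.

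Counts were compared in R 4.3.3 with edgeR 4.0.16 (limma 3.58.1): filterByExpr with a minimum count of 10, TMM scaling, robust quasi-likelihood F test with genotype alone, and Benjamini-Hochberg adjustment over 11563 genes, called at an adjusted p below 0.05. The biological coefficient of variation was 26.2%. Ratios of 8 pairs, with 0.5 added to each count, went into exact permutation tests, two-sided. Also tried were RLE scaling, no composition scaling, DESeq2 1.42.0, no count filter, a filter at 1 CPM, GC correction by lowess (span 0.3, 3 iterations, prior count 2), 1 surrogate variable from sva 3.50.0, other added counts, and libraries left out. The test was checked on simulated data. Shared words, GC content and coding parts came from GENCODE M21, matched for 47223 of 47642 genes, 44233 of them at the same coordinates. Sequences before start sites came from RefSeq on GRCm38.p6.

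Members, lists, pairs and alternatives were chosen with earlier results of these data known. Named were all called members, in each prefix the member with the highest mean and those with the highest and lowest fold change, members without overlap between genotypes, members of pairs, and up to 4 called genes with the smallest adjusted p in each other list. Some results that this rule names are not reported here.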

Additional observations from a re-analysis of the deposited data

Results flagged for a closer look

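The level of each of 82 tested members in each genotype, and of 8 pair ratios, was examined for a library set apart from the other 6, by the gap to the nearest library over the range of the group against the 95% critical value of Dixon. Chance gives about 1 in 20 such groups, and 16 of 180 were found, 11 of them in UtyGT 6.

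UtyGT 6 stood above the other UtyGT libraries for Snrpc (18.0 CPM, gap 0.796 of the range), Snrpd3 (133 CPM, 0.732), Prpf4b (79.8 CPM, 0.701), Sf3b2 (353 CPM, 0.641), Prpf6 (58.1 CPM, 0.636), Lsm2 (30.5 CPM, 0.594), Hnrnpr (47.2 CPM, 0.573) and Lsm6 (267 CPM, 0.572). It stood below them for Sf3b6 (18.7 CPM, 0.702) and Hnrnpu (44.9 CPM, 0.628), and its log2 ratio of Luc7l3 to Luc7l2 was the highest (0.84, gap 0.744).

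Among WT libraries, WT 6 stood low for Hnrnpc (93.3 CPM, 0.738) and WT 4 for Prpf19 (96.3 CPM, 0.621). WT 7 stood high for Srsf6 (59.6 CPM, 0.577) and Hnrnpf (6.78 CPM, 0.573), and WT 1 for the log2 ratio of Mfap1a to Mfap1b (2.25, 0.657).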

How the results depend on the processing

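The 7 members called higher became 11 with DESeq2, 18 with surrogate variables, 4 with GC correction and 5 to 11 with single libraries left out. The 1 called lower became 6 with DESeq2, 9 with surrogate variables, 2 with no composition scaling or no count filter, 0 with GC correction, 5 without WT 4 and UtyGT 6 together, and 1 to 9 with single libraries left out. Of all tested genes, 543 higher became 337 with no count filter, 304 with GC correction, 1251 with surrogate variables and 276 (without WT 4) to 919 (without UtyGT 6). The 386 lower became 669 with DESeq2, 247 with GC correction, 1244 with surrogate variables, 834 without WT 4 and UtyGT 6 together, and 146 (without UtyGT 7) to 1329 (without UtyGT 6). With surrogate variables, 9 of 82 members were lower (10.98%), beside 10.76% of all tested genes, and 18 were higher (21.95%), beside 10.82%. With no composition scaling, 2 members were lower (2.44%), beside 3.23% of all tested genes, and 10 higher (12.2%), beside 5.34%. With no count filter, 2 members were lower (2.33%), beside 1.25% of 22002 genes, and 5 higher (5.81%), beside 1.53%. Those 22002 genes include many with few counts. Apart from the GC correction, whose construction removes the GC trend, the cause of these changes was not tested.

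Log2 fold changes near 0 turned with GC correction to -0.00325 for Hnrnpd, -0.0752 for Hnrnpk, -0.0475 for Lsm6, -0.0771 for Luc7l and -0.153 for Srsf7, that of Lsm6 to -0.00339 without WT 4 and UtyGT 6 together, and that of Srsf3 to 0.0451 with no composition scaling. Leaving out single libraries gave -0.102 to 0.140 for Lsm6, -0.0292 to 0.0751 for Luc7l, -0.0419 to 0.0225 for Srsf3 and -0.0216 to 0.0803 for Srsf7. For log2 ratios it gave 1.17 to 1.37 for Mfap1a to Mfap1b, 0.29 to 0.45 for Luc7l3 to Luc7l2, -0.31 to -0.19 for Hnrnpdl to Hnrnpd (adjusted exact p = 0.0404 without WT 5 and 0.0396 without WT 6), 0.49 to 0.78 for Sf3b1 to Sf3b2 and -0.0276 to 0.161 for Snrpn to Snrpb. Adding 5 in place of 0.5 turned the log2 ratio of Hnrnpa2b1 to Hnrnpa1 to 0.11.

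No paired analysis was possible because the columns carry no number that ties a UtyGT library to a WT library. The SE of the log2 fold change was 0.55 for Hnrnpf, with 409 counts over all libraries and 4 to 75 in single UtyGT libraries, and 0.37 for Hnrnph2, with 139 counts, whereas Sf3b4 had an SE of 0.20 with 384 counts. Hnrnpf was called higher with surrogate variables (0.70, adjusted p = 0.0425) and in no other alternative.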
